A study of Danio rerio with 11 samples.

Results

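Described here are immediate early and injury-response transcription genes in intraspinal serotonergic neurons (ISNs), neurons of the spinal cord that make serotonin. They were chosen by name: every gene ID whose symbol belongs to the fos, jun, egr, ier, nr4a, npas4, atf3 to atf5, cebpb and cebpd, klf, btg1 and btg2, gadd45, dusp or socs families. The rule found 100 gene IDs in 13 families among the 39714 gene IDs of the table. It uses names, except that ENSDARG00000099195 was added by its ID as ier2a. Immediate early genes are switched on within minutes of calcium entry, growth factor signalling or damage, without the need for new protein. Their products are mostly transcription factors, such as the FOS and JUN proteins that pair to form AP-1. Immediate early genes are followed by genes that end the response. Among those are some of the dusp phosphatases, which switch off MAP kinases, and socs proteins that restrain JAK-STAT signalling. In injured neurons several immediate early genes, such as ATF3, JUN and KLF6, are known markers of or contributors to axon regrowth.

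The libraries are bulk RNA sequencing of ISNs sorted by fluorescence from the transgenic zebrafish line Tg(tph2:GFP), in which green fluorescent protein marks cells that express the serotonin-synthesis gene tph2. All fish had undergone spinal cord injury 6 to 8 weeks before, and no library of an uninjured fish was analysed here. There were 6 libraries from the injury segment (SP_6W in the labels, here injury 1 to 6) and 5 from segments distal to it (SP_SC, here distal 1 to 5). In the study's methods, injury and distal tissue was taken from the same fish and dissociated with papain before sorting, so transcription present in the cord and transcription begun during handling cannot be told apart in the levels below. How many fish stand behind a library is not given in the sources used here, and the labels do not say that the libraries came from separate fish, so p-values measure only the spread between these libraries, which may be technical. In bulk libraries, fewer cells with a transcript and less transcript per cell cannot be told apart either.

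Levels are in FPKM, fragments scaled to gene length in kilobases and to the library's mapped fragments, with 14215980 to 19709661 fragments behind a library. Depth was similar, but the number of genes at 1 FPKM or more was not. It was 4530 in injury 3, 5443 in injury 2 and 8448 in distal 2, the lowest 3 of the 11 libraries, and reached 16019 in injury 5. Injury 4 came next at 8808, close to distal 2, so the line drawn after these 3 libraries is arbitrary. Of 16 genes of general cell use, picked after the data were seen, 4 were listed at 0 in injury 3, 3 in injury 2 and no more than 2 in any other library, so a member at 0 is only said to be listed at 0, and calls that rest on these 3 libraries are also given without them. Of 10 serotonergic IDs, TPH2, FEV and GATA3 were high in every library, TPH2 at 1589.5 to 5396 FPKM in injury libraries and 1462 to 6042 FPKM in distal libraries. DDC was at 584 FPKM or more in every library, and SLC18A2, GATA2 and LMX1B (ENSDARG00000068365) were at 99.6 FPKM or more. SLC6A4 ranged over 3.28 to 200 FPKM in injury libraries and 33.8 to 183 FPKM in distal libraries. Both slc6a4b and LMX1B (ENSDARG00000104815) were listed at 0 in libraries of each segment. Of markers of other cells, the summed level of 8 oligodendrocyte genes was 0 to 753 FPKM in injury libraries and 162 to 702 FPKM in distal libraries. Among them mbpa, a myelin protein gene, was at 0 to 234 FPKM in injury libraries and 129 to 531 FPKM in distal libraries, a difference of -4.54 ± 1.04 on the log2(FPKM + 1) scale (SE; limma p 0.000171). The sum of 13 microglia and macrophage IDs was 0 to 395 FPKM in injury libraries and 0.193 to 303 FPKM in distal libraries, with 3 of the 13 (CORO1A, c1qa and c1qc) listed at 0 in all libraries and others well above it, such as cd74a at up to 236 FPKM in injury libraries and 163 FPKM in distal libraries, and 0 of 9 tested called. The sum of 11 ependymo-radial glia IDs was 120 to 541 FPKM in injury libraries and 63 to 805 FPKM in distal libraries, and 1 of the 9 tested had a difference below 0, with a median of 0.66 and 0 called. Endothelial, erythrocyte and fibroblast markers summed to at most 3.96, 22.9 and 45.5 FPKM in injury libraries and 10.6, 3.93 and 47.3 FPKM in distal libraries. The part of other cells in the values of immediate early genes was not tested.

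Immediate early genes stood among the most abundant transcripts of the sorted neurons in both segments, and 27 of the 35 members with a mean of at least 50 FPKM had a difference below 0, lower at the injury (77.1%, beside 64% of the 1531 genes at that level). Without distal 5 it was 20 of the 35 (57.1%, beside 61.7% of genes). FOS was the 8th to 18th highest gene of every library. The 100 members together held 1.55% to 3.62% of a library's summed FPKM in injury libraries and 1.99% to 4.48% in distal libraries. Of the 100 members, 37 were above 0 in all 11 libraries, which is 37% against 5.76% of all gene IDs. A further 7 were listed at 0 everywhere (klf2b, klf5l, DUSP10, dusp3b and 1 of the IDs each of NR4A2, DUSP19 and SOCS6). Another 8 were above 0 but under a mean of 0.1 FPKM, the minimum for testing, which left 85 members tested.

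Injury and distal libraries were compared with limma on log2(FPKM + 1), a scale that understates the change of low genes, and each difference below is injury minus distal on that scale. With Benjamini-Hochberg adjustment over all 24178 genes tested, 0 members and 0 genes had an adjusted limma p under 0.05, and the lowest adjusted p of a member was 0.838, so the p-values given with single genes below are unadjusted. At an unadjusted p under 0.05, the cut-off named in the study's methods, 9 of the 85 members were called (10.6%), beside 2.68% of all genes. Of these, 8 were lower at the injury, 9.41% of members beside 2.03% of all genes, and 1 was higher, 1.18% beside 0.658%. The 8 were ier2a, EGR2, fosl2l, DUSP2, socs5a and 1 ID each of JUNB, DUSP23 and SOCS6, and the 1 higher was DUSP1. Run with voom on fragments recovered from the FPKM values, the comparison called 11 members at an unadjusted p under 0.05 (12.9%, beside 4.69% of all genes), of which 7 were among these 9, and 0 at an adjusted p under 0.05.

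Single libraries weighed on this count. Without distal 2 it was 3 members (3.53%, beside 2.76% of all genes, a share near the background). Without injury 4 it was 4 (4.71% beside 2.37%), without distal 5 it was 5 (5.88% beside 2.38%), and the number lower at the injury was also 5 without injury 2. Only ier2a and DUSP23 (ENSDARG00000089245) had an unadjusted p under 0.05 in all 23 alternative analyses. With injury 2, injury 3 and distal 2 left out together, 7 members were called, 5 lower and 2 higher, 5 of them among the 9. The other 2 were NR4A2 (ENSDARG00000044532), higher, and dusp22a, lower, with a difference of -2.24 and a p of 0.033 there and -1.12 with a p of 0.334 over all libraries. In that analysis 4.23% of all genes were called and 1.17% were called lower.

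The tested members leaned to lower values at the injury. Their difference, injury minus distal, was below 0 for 58 of 85 (68.2%) with a median of -0.20, beside 51.8% and a median of -0.04 over all genes tested. The gap was smaller among abundant genes. Where the mean was 10 FPKM or more, 42 of 53 members were below 0 (79.2%) with a median of -0.32, beside 64% and -0.31 over the 5687 such genes. Of those 53 members 7 were called, 6 of them lower, where 6.26% of such genes were called and 4.75% were called lower. The lean also rested on distal 5, the library with the highest summed level of the members: without it 42 of 85 members were below 0 (49.4%) and the median was 0.02, beside 45.2% and 0.08 over all genes. With injury 2, injury 3 and distal 2 left out, 50 of 85 were below 0 (58.8%) with a median of -0.14, beside 41.3% and 0.17.

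**Figure D1:**
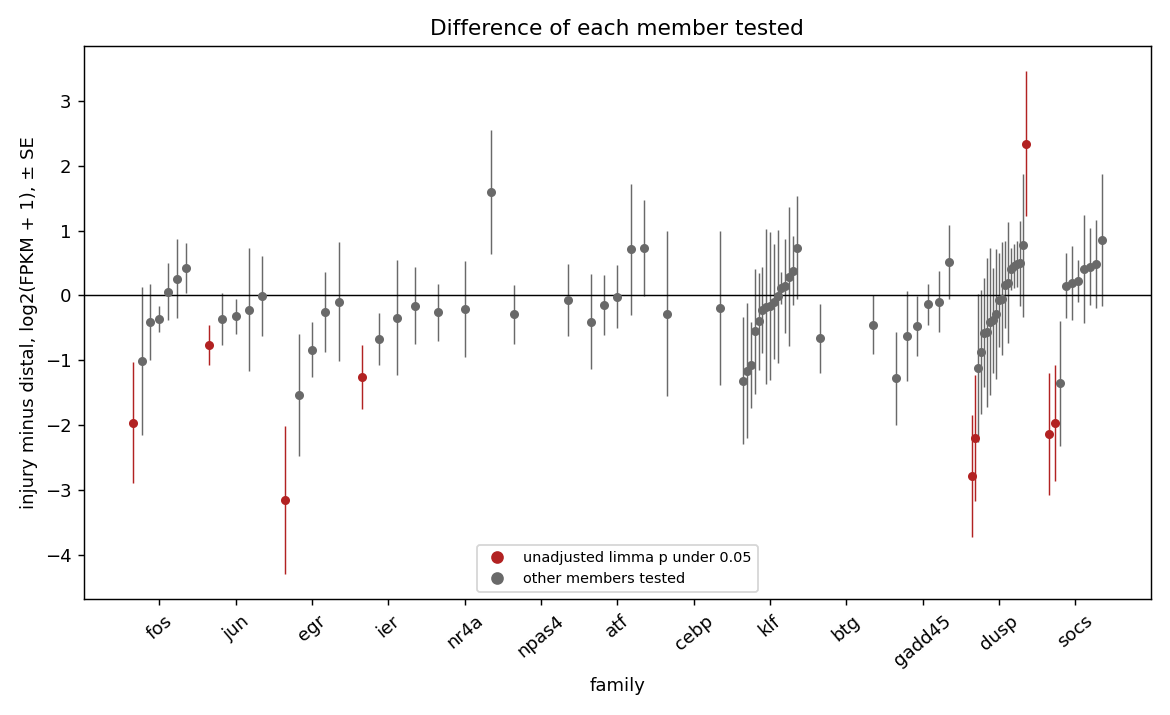
Difference between injury and distal libraries on the log2(FPKM + 1) scale (vertical axis, with the limma standard error as bars) for the 85 members tested, grouped by family along the horizontal axis and sorted within each. Red points are the 9 members with an unadjusted limma p under 0.05, of which 8 lie below 0 and 1, DUSP1, above.

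The fos family, whose proteins need a JUN partner to bind DNA, was led by FOS in both segments and had 1 of 7 members called, fosl2l. Beside this and the family counts that follow, 2.68% of all genes tested were called and 51.8% had a difference below 0. FOS measured 3841, 3336, 3094, 2900.3, 4390.4 and 4704 FPKM at the injury, against 4097, 4125, 5636, 5480.4 and 4335 FPKM in the distal segments. The highest 2 libraries were distal 3 and distal 4, and 4 of the 6 injury libraries lay below all distal ones, but injury 5 and 6 overlapped them. The mean was 3711 ± 727 FPKM in injury libraries and 4735 ± 759 FPKM in distal libraries (SD, n = 6 and 5), a difference of -0.36 ± 0.20 on the log2 scale (SE; limma p 0.0873, exact permutation p 0.0563; 95% interval -0.78 to 0.06). FOS varied 1.94-fold between its lowest and highest library. Its p was under 0.05 in 3 of 23 alternatives, the pseudocounts of 0.1 and 0.01 and voom.

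A fos-like gene related to FOSL2, fosl2l measured 109, 86.6, 0, 78.3, 92.5 and 47.1 FPKM in injury libraries and 129, 86.7, 238, 152 and 193 FPKM in distal libraries. In injury 3 it was listed at 0, and the other injury libraries lay at or below 109 FPKM, overlapping only the lowest distal library, distal 2. The difference was -1.97 ± 0.93 (SE; limma p 0.0444, exact permutation p 0.0346), but it was -0.91 with a p of 0.0686 without injury 3, and the p was above 0.05, at most 0.151, when any library other than injury 2 was left out, with a difference of -1.80 to -2.27 for those other than injury 3. With the 3 libraries of few genes left out it was -1.14 with a p of 0.0115. FOSL2 itself, one of the slower members of the family, measured 128, 95.8, 51.5, 99.4, 183 and 131 FPKM in injury 1 to 6, against 136, 109.8, 141, 182 and 154 FPKM in distal 1 to 5, and the segments overlapped widely.

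FOSB, which follows FOS in stimulated neurons, measured 849, 280.4, 399.7, 731, 1717 and 688 FPKM at the injury, against 408, 466, 912, 856 and 687 FPKM in the distal segments. Its highest library was injury 5 and its lowest injury 2. FOSL1 measured 88.7, 91.9, 205, 89.5, 119 and 97.6 FPKM in injury libraries and 43.3, 134, 93.7, 121 and 95.9 FPKM in distal libraries, with its highest value in injury 3 and its lowest in distal 1. The remaining members were lower: fosaa was listed at 0 in injury 2 and reached 125 FPKM in distal 4, and fosl1b was above 0 in injury 5 alone, at 4.85 FPKM.

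The jun genes, which supply the other part of AP-1, were led by JUN and a pair of JUNB IDs. All 5 members had a difference below 0, with 1 called, beside 51.8% below 0 and 2.68% called over all genes tested. Among genes with a mean of 10 FPKM or more, 64% were below 0. JUND (-0.01 ± 0.62, SE; limma p 0.985) and june (-0.22 ± 0.95, SE; limma p 0.818) lay well within 1 SE of 0. Of the JUNB IDs, ENSDARG00000104773 measured 1253, 1333, 3579, 1168, 2267 and 1484 FPKM in injury 1 to 6, against 1774, 4322, 3037, 2095 and 4048 FPKM in distal 1 to 5. Injury 3 was high, at 3579 FPKM, and injury 1, 2, 4 and 6 lay below every distal library. The mean was 1847 ± 936 FPKM in injury libraries and 3055 ± 1135 FPKM in distal libraries (SD, n = 6 and 5), a difference of -0.77 ± 0.31 (SE; limma p 0.0211, exact permutation p 0.0693). Without injury 3 it was -0.98 with a p of 0.00379. The p stayed under 0.05 without distal 1 and without distal 4, and was between 0.0519 and 0.119, with a difference of -0.85 to -0.62, without any 1 of the other 8 libraries. With the 3 libraries of few genes left out it was -0.80 with a p of 0.0442.

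The other JUNB ID, ENSDARG00000074378, measured 2735, 1793, 4179, 1862, 2884 and 2133 FPKM at the injury, against 1737, 3400.3, 3478, 3060.3 and 4554 FPKM in the distal segments, between the 10th and the 52nd highest gene of each library. Its segments overlapped, with a mean of 2598 ± 895 FPKM in injury libraries and 3246 ± 1013 FPKM in distal libraries (SD, n = 6 and 5) and a difference of -0.32 ± 0.27 (SE; limma p 0.248, exact permutation p 0.29; 95% interval -0.88 to 0.24). JUN, the classical AP-1 partner induced in axotomised neurons, measured 1259, 691, 2974, 1407, 1769 and 1091 FPKM in injury libraries and 688, 3094, 1339, 1519 and 4165 FPKM in distal libraries. It spanned 6.06-fold, with its 3 highest values in distal 5, distal 2 and injury 3 and both of its lowest, 688 and 691 FPKM, in distal 1 and injury 2. JUND, the family member that most cells keep on at rest, measured 87.03, 60.4, 56.4, 79.8, 104 and 105 FPKM in injury 1 to 6, against 54.9, 76.0, 107, 84.03 and 90.4 FPKM in distal 1 to 5 and varied 1.94-fold. The fifth member, june, stayed under 10 FPKM in every library.

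**Figure D2:**
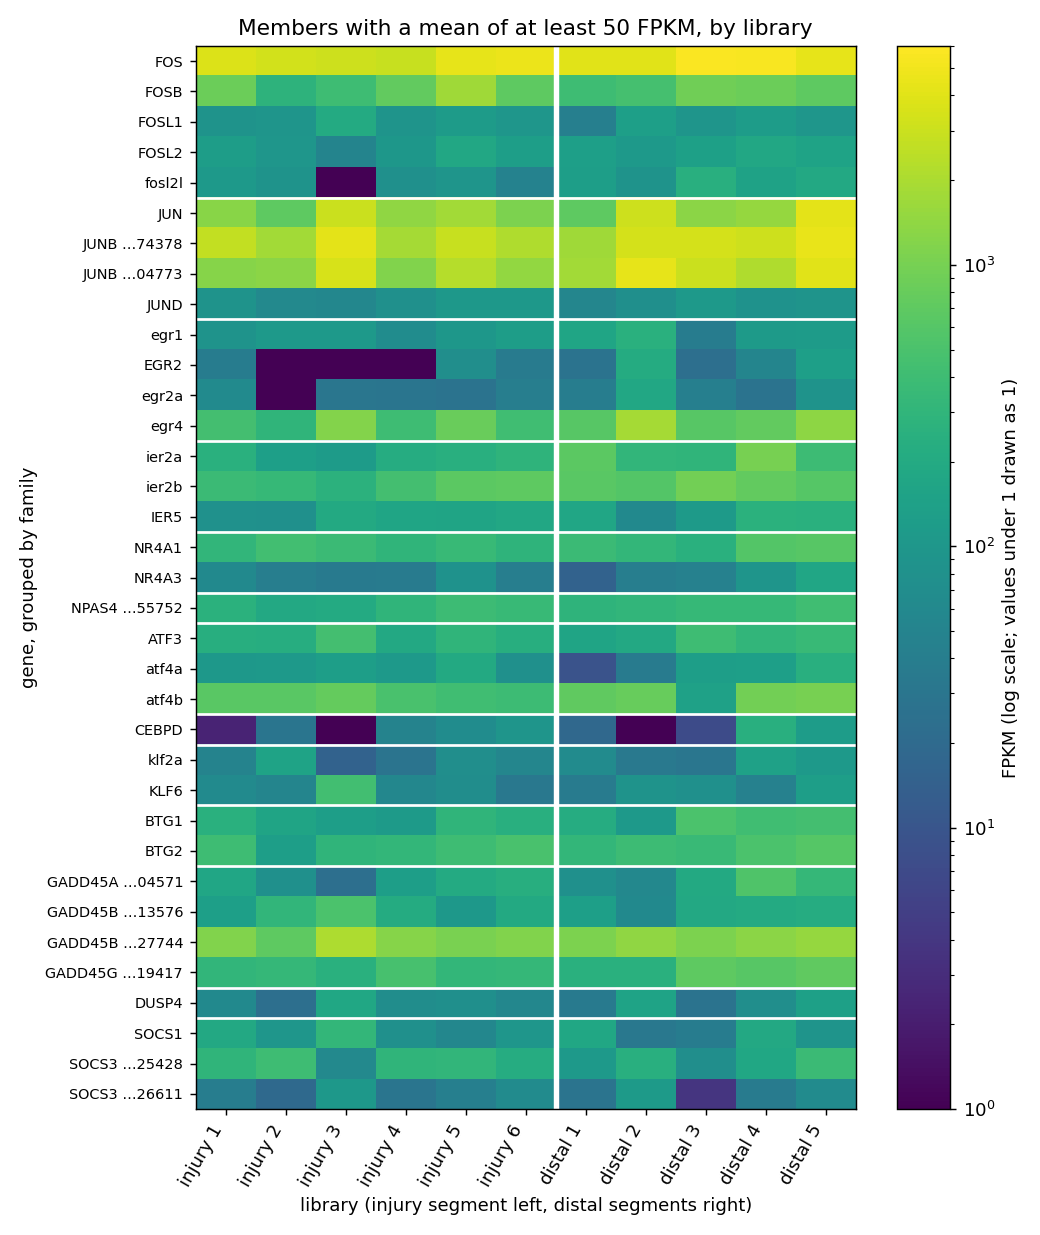
FPKM (colour, log scale) of the 35 members with a mean of at least 50 FPKM, 1 row per gene grouped by family, in the 6 injury libraries (left of the white line) and the 5 distal libraries (right). FOS, JUN and both JUNB IDs are bright in every library, whereas EGR2 and fosl2l have dark cells in the injury libraries where they are listed at or near 0. Other rows have such cells too: egr2a in injury 2, and CEBPD in injury 3 and distal 2.

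In the egr family, zinc-finger factors that serve as markers of neuronal activity, all 5 members had a difference below 0 and 1, EGR2, was called. These shares were 51.8% and 2.68% over all genes tested, and 64% of genes with a mean of 10 FPKM or more were below 0. EGR2, known as Krox20 in the hindbrain and in myelinating glia, measured 38.97, 0, 0, 0.244, 73.02 and 36.7 FPKM at the injury, against 27.1, 212, 24.2, 51.7 and 134 FPKM in the distal segments. Injury 2 and 3 listed it at 0 and injury 4 held 0.244 FPKM, while the remaining injury libraries lay within the distal range. The difference was -3.15 ± 1.15 (SE; limma p 0.0105, exact permutation p 0.0844). It was -2.65 with a p of 0.0654 without injury 4, -2.72 with a p of 0.0721 without distal 2 and -2.88 with a p of 0.0773 without distal 5. With injury 2, injury 3 and distal 2 left out it was -1.30 with a p of 0.311 and was no longer called.

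The most abundant member was egr4, at 445, 292, 1209, 405, 821 and 412 FPKM in injury libraries and 633, 1849, 622, 730.0 and 1388 FPKM in distal libraries. Its 2 highest libraries were distal 2 and distal 5, injury 3 and injury 5 lay within the distal range, and the other 4 injury libraries lay below all distal ones. The mean was 597 ± 349.8 FPKM in injury libraries and 1044 ± 550.4 FPKM in distal libraries (SD, n = 6 and 5), a difference of -0.83 ± 0.43 (SE; limma p 0.0628, exact permutation p 0.104; 95% interval -1.72 to 0.05), and its p was under 0.05 in 4 of 23 alternatives. Of the others, egr1, the most used activity marker of the family, measured 88.5, 108, 109, 69.9, 100.2 and 128 FPKM in injury 1 to 6, against 168, 249, 39.2, 116 and 119.5 FPKM in distal 1 to 5, with both the highest and the lowest value in distal libraries. The Krox20 paralog egr2a measured 64.6, 0.0663, 30.9, 29.4, 27.9 and 40.9 FPKM at the injury, against 39.5, 184, 42.5, 27.1 and 87.3 FPKM in the distal segments, and distal 2 was again its highest library. EGR3 did not exceed 4.98 FPKM in injury libraries, whereas it reached 18.0 FPKM in distal 4.

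The ier genes, with 4 of 4 members below 0 and 1 called, included a member, ier2a, that was lower in all 6 injury libraries than in any distal library, though by a small margin. Over all genes tested 51.8% were below 0 and 2.68% called, and 64% of genes with a mean of 10 FPKM or more were below 0. IER2 encodes a small nuclear protein induced by serum and growth factors. In the injury libraries ier2a measured 254, 137, 118, 219, 241 and 283 FPKM, against 659.8, 311, 299, 1017 and 392 FPKM in the distal libraries. The highest injury value, in injury 6, lay just below the lowest distal value, in distal 3. The mean was 209 ± 66.4 FPKM in injury libraries and 536 ± 306 FPKM in distal libraries (SD, n = 6 and 5), a difference of -1.26 ± 0.49 (SE; limma p 0.017; 95% interval -2.27 to -0.24). The exact permutation p was 0.00216, the smallest that this design allows. Across 23 alternatives the difference lay between -1.42 and -0.98, with p between 0.0072 and 0.0451, and it was -1.09 with a p of 0.0211 without the 3 libraries of few genes. The separation itself depended on the scale: with each library rescaled to a sum of 1000000, the highest injury value was 379 and the lowest distal value 375, so the segments overlapped.

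Only 2 of the 85 members had segments that did not overlap, ier2a and DUSP23 (ENSDARG00000089245), both lower at the injury. That is 2.35% of members tested, beside 0.252% of all genes tested, made up of 0.186% lower and 0.0662% higher at the injury. A gene listed at 0 in libraries of both segments cannot be separate, and no share among genes of similar level was computed. These percentages are therefore not matched for level. The paralog ier2b measured 378, 343, 266, 438, 678 and 683 FPKM in injury libraries and 655, 578, 935, 753 and 612 FPKM in distal libraries. Its difference had the same sign, but injury 5 and 6 overlapped the distal range. The mean was 464 ± 176 FPKM in injury libraries and 707 ± 143 FPKM in distal libraries (SD, n = 6 and 5), a difference of -0.67 ± 0.40 (SE; limma p 0.106, exact permutation p 0.0411; 95% interval -1.49 to 0.15), and the limma p was under 0.05 in 3 of 23 alternatives. IER5, a stress-induced relative, measured 82.2, 79.6, 200.2, 164, 159 and 181 FPKM in injury 1 to 6, against 172, 62.6, 114, 258 and 247 FPKM in distal 1 to 5. IER5L ranged over 5.01 to 87.1 FPKM in injury libraries and 6.78 to 48.8 FPKM in distal libraries with its highest value in injury 3, and both of these overlapped throughout.

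**Figure D3:**
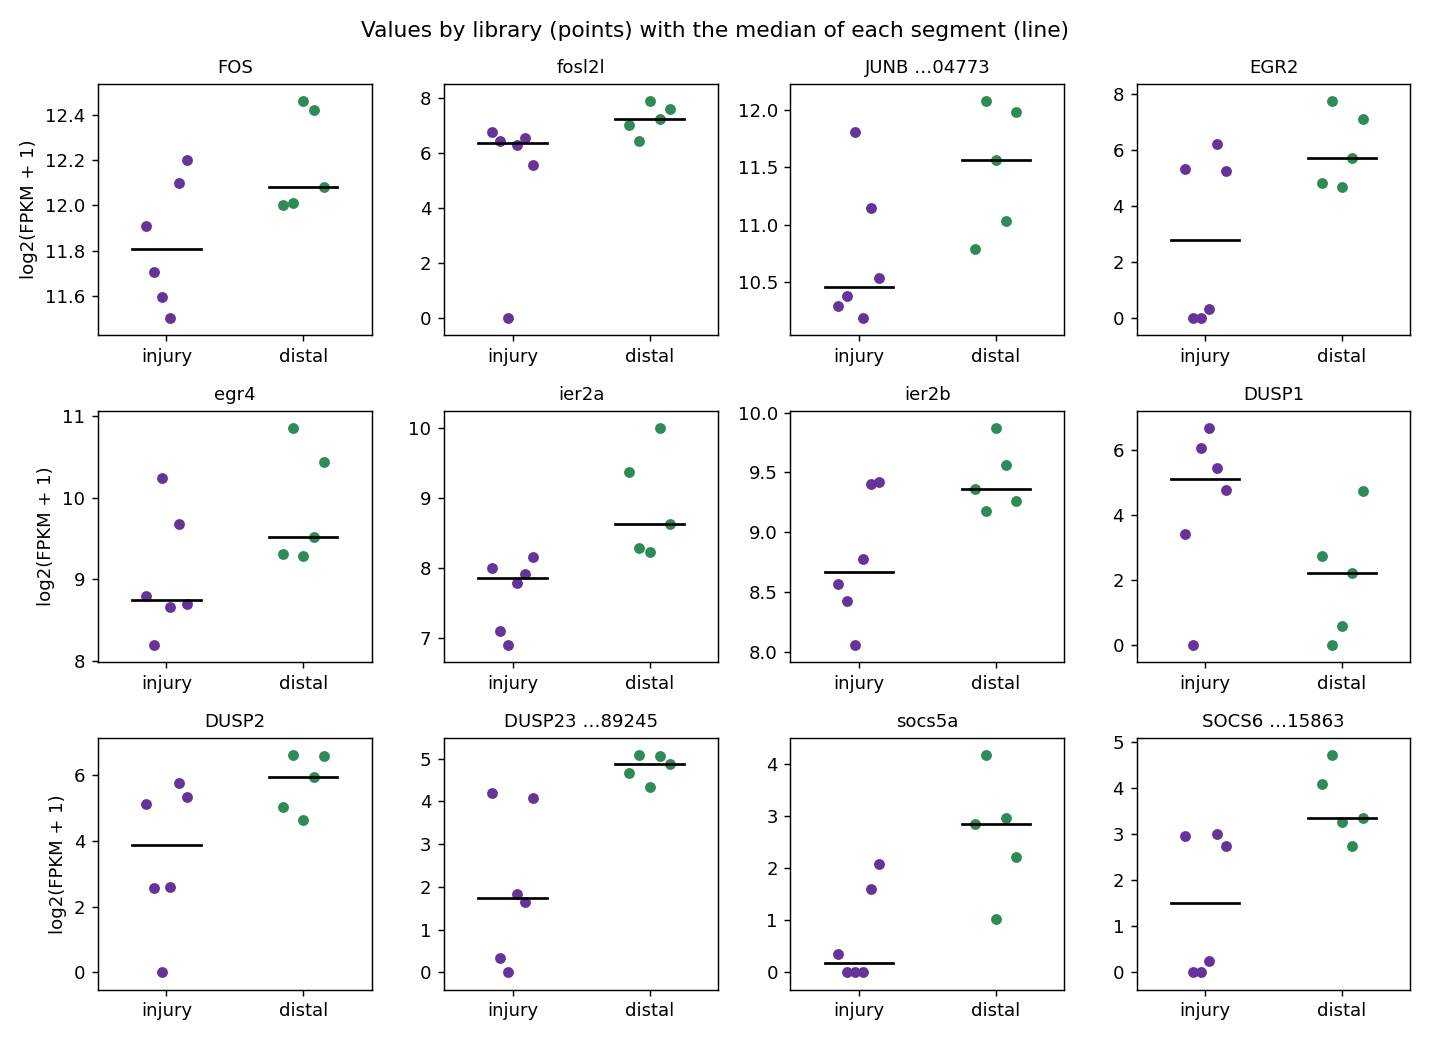
Values by library on the log2(FPKM + 1) scale (points; injury libraries in purple on the left, distal libraries in green on the right, lines at the medians) for the 9 members with an unadjusted limma p under 0.05 and for FOS, egr4 and ier2b. The vertical axes differ between panels. In the ier2a and DUSP23 panels all purple points lie below all green points. The lowest purple points are at or near 0 in the fosl2l, EGR2, DUSP1, DUSP2, DUSP23, socs5a and SOCS6 panels. In the DUSP1 panel the lowest green point is at 0 too.

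The nr4a genes encode orphan nuclear receptors that act as immediate early factors, and none of the 3 tested was called over all libraries. NR4A1, also called Nur77, measured 302, 426, 374, 297, 350.2 and 290.5 FPKM at the injury, against 372, 313, 249, 594 and 623 FPKM in the distal segments, and stayed within 2.51-fold across all libraries. Its highest 2 libraries were distal 4 and distal 5, the rest overlapped, and the difference was -0.26 ± 0.44 (SE; limma p 0.557, exact permutation p 0.318; 95% interval -1.16 to 0.64). NR4A3 measured 61.3, 41.04, 34.6, 37.9, 84.03 and 41.2 FPKM in injury libraries and 15.6, 41.6, 46.2, 92.2 and 174 FPKM in distal libraries, with both its lowest and its highest value in the distal segments. NR4A2, the Nurr1 gene of dopaminergic neurons, had 1 ID listed at 0 throughout and another, ENSDARG00000044532, that was above 0 in 4 injury libraries, at 3.09 to 14.1 FPKM, and in 1 distal library, at 4.42 FPKM. Its difference of 1.60 ± 0.95 had a p of 0.105. It was called with injury 2, injury 3 and distal 2 left out (2.52, p 0.013), and without injury 2 (2.01, p 0.0462), injury 3 (2.01, p 0.0448) or distal 3 (2.08, p 0.0447) alone.

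NPAS4 is induced in neurons by calcium entry and is found in few other cells. None of its family was called. The ID ENSDARG00000055752 measured 261, 189.5, 204, 296, 388 and 348 FPKM in injury 1 to 6, against 284, 307, 336, 335 and 419 FPKM in distal 1 to 5. It varied 2.21-fold, the segments overlapped, and the difference was -0.29 ± 0.46 (SE; limma p 0.525, exact permutation p 0.188; 95% interval -1.23 to 0.64). The other ID was above 0 only in injury 6 and distal 5, near 5 FPKM. The related npas4l, needed for endothelial and blood cells in zebrafish, did not exceed 0.395 FPKM in any library.

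The atf genes link injury and stress to transcription, and none of the 5 was called. ATF3, a factor induced in neurons by axon injury in mammals, measured 237, 225, 449, 189, 299 and 231 FPKM at the injury, against 159, 188, 405, 305 and 346 FPKM in the distal segments. The mean was 272 ± 93.9 FPKM in injury libraries and 281 ± 105 FPKM in distal libraries (SD, n = 6 and 5), and the difference of -0.02 ± 0.49 on the log2 scale had a 95% interval of -1.02 to 0.98 and limma p 0.969, exact permutation p 0.948. ATF4 carries the integrated stress response, and atf4b, the highest of the family, measured 649, 639, 764, 496, 414 and 389.7 FPKM in injury libraries and 712, 786, 146, 938 and 999 FPKM in distal libraries. It was low in distal 3, at 146 FPKM, with the other distal libraries at 712 FPKM or more and 5 of 6 injury libraries below that level. The difference was -0.14 ± 0.46 (SE; limma p 0.762, exact permutation p 0.835), and it was -0.65 with a p of 0.0528 without distal 3 and 0.04 with a p of 0.935 without distal 5. Its paralog atf4a measured 102, 112, 133, 105, 198 and 78.4 FPKM in injury 1 to 6, against 9.298, 37.2, 133, 137 and 239 FPKM in distal 1 to 5, and distal 1 and distal 2 were the lowest. Of the ATF5 genes, atf5a reached 42.5 FPKM in injury 2 and 12.3 FPKM in distal 5, and atf5b was above 0 in injury 6 and distal 2 alone.

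CEBPD and CEBPB, factors of inflammation, overlapped between the segments and were not called. CEBPD measured 2.34, 29.2, 0, 49.2, 68.7 and 94.3 FPKM at the injury, against 19.1, 0, 7.29, 245 and 121 FPKM in the distal segments. Injury 3 and distal 2 listed it at 0, it was highest in distal 4 and distal 5, and the difference was -0.28 ± 1.27 (SE; limma p 0.826, exact permutation p 0.877). CEBPB ranged over 0 to 81.8 FPKM in injury libraries and 0 to 36.5 FPKM in distal libraries.

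Of the 21 klf genes, zinc-finger factors with opposite effects on axon growth in vertebrate neurons, 15 were tested, 10 had a difference below 0 and none was called. KLF6, which with KLF7 supports regrowth of optic axons in zebrafish, measured 63.4, 53.03, 438, 56.9, 71.9 and 32.95 FPKM in injury libraries and 37.1, 86.8, 79.2, 46.2 and 131 FPKM in distal libraries. It stood at 438 FPKM in injury 3 and at no more than 71.9 FPKM in the other injury libraries, and the difference was 0.15 ± 0.72 (SE; limma p 0.837, exact permutation p 0.864). Without injury 3 it took the other sign, at -0.35 with a p of 0.519, and without the 3 libraries of few genes it was -0.26 with a p of 0.59. KLF7 (ENSDARG00000043821) was at 21.1 to 37.4 FPKM in injury libraries and 5.99 to 37.4 FPKM in distal libraries, with a difference of 0.74 ± 0.80 and a p of 0.363. KLF9, which limits axon growth in rodent neurons, ranged over 0 to 90.3 FPKM in injury libraries and 16.97 to 94.4 FPKM in distal libraries. KLF4, known for the same effect, ranged over 0 to 50.9 FPKM in injury libraries and 0 to 21.7 FPKM in distal libraries. Flow-responsive in blood vessels, klf2a measured 49.4, 155, 15.3, 28.1, 72.4 and 53.3 FPKM in injury 1 to 6, against 66.1, 33.5, 30.9, 143 and 110.0 FPKM in distal 1 to 5. Injury 3 was also the highest library of KLF4, KLF8, KLF15 and KLF11 (ENSDARG00000013794), at 50.9, 109.8, 34.7 and 142 FPKM.

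BTG1 and BTG2, brakes on proliferation, were lower on average at the injury, and neither was called over all libraries. BTG1 measured 251, 159.6, 133, 114, 294 and 242 FPKM at the injury, against 217, 110.3, 519, 415 and 447 FPKM in the distal segments, with distal 3, 4 and 5 above every injury library but distal 2 the lowest of all. BTG2 measured 397, 129.9, 297, 313, 400.2 and 486 FPKM in injury libraries and 318, 395, 369, 507 and 606 FPKM in distal libraries, and injury 2 was the lowest. The differences were -0.66 ± 0.54 for BTG1 (SE; limma p 0.229, exact permutation p 0.167) and -0.45 ± 0.46 for BTG2 (SE; limma p 0.337, exact permutation p 0.229; 95% interval -1.39 to 0.49). Without distal 2, BTG1 was called, at -1.02 with a p of 0.0365, and without the 3 libraries of few genes it was -0.84 with a p of 0.0665. BTG2 was -0.20 with a p of 0.6 without injury 2.

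The gadd45 genes, induced by stress and active in DNA repair and demethylation, held 1 of the most abundant members, and none of the 6 tested was called. GADD45B (ENSDARG00000027744) measured 1165, 692, 2026, 1224, 1044 and 1153 FPKM in injury 1 to 6, against 1086, 1396, 1078, 1312 and 1541 FPKM in distal 1 to 5. It was within the 171 highest genes of every library, injury 3 was the highest and injury 2 the lowest, and the difference was -0.13 ± 0.32 (SE; limma p 0.675, exact permutation p 0.595; 95% interval -0.78 to 0.51). The other GADD45B ID, ENSDARG00000013576, measured 138, 304, 512, 214, 102 and 196 FPKM at the injury, against 134, 62.1, 191, 205 and 222 FPKM in the distal segments, and was the only tested member of the family with a difference above 0, 0.51 ± 0.57 (SE; limma p 0.38, exact permutation p 0.318). GADD45G (ENSDARG00000019417) measured 304, 325, 246, 485, 321 and 325 FPKM in injury libraries and 249, 249, 692, 624 and 723 FPKM in distal libraries. Its distal libraries split, with distal 1 and 2 at 249 FPKM and the others at 624 FPKM or more, all of the injury libraries lying at or below 485 FPKM. GADD45A (ENSDARG00000104571) measured 173, 78.02, 24.2, 129, 207 and 234 FPKM in injury 1 to 6, against 78.8, 58.3, 199, 546 and 329 FPKM in distal 1 to 5, a range of 22.5-fold with injury 3 the lowest and distal 4 the highest. The other 3 IDs of the family did not exceed 21.2 FPKM.

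The dusp phosphatases held both directions: of 19 tested members 2 were called lower and 1 higher, beside 2.03% and 0.658% of all genes tested. Some of them, but not all, take phosphate off MAP kinases and so close the pathway that turns on the genes above. DUSP1, the inducible nuclear phosphatase also known as MKP-1, measured 9.82, 0, 65.9, 102, 42.5 and 26.5 FPKM at the injury, against 5.75, 0, 0.5002, 3.63 and 25.6 FPKM in the distal segments. It was listed at 0 in 1 library of each segment, injury 2 and distal 2, and 4 of 6 injury libraries lay above every distal library. The difference was 2.34 ± 1.12 (SE; limma p 0.0459, exact permutation p 0.11). The p was under 0.05 in 8 of 23 alternatives. It was 0.0038 without injury 2, with a difference of 3.22, and 0.0345 without distal 5, and leaving out any 1 of the other 9 libraries gave a p between 0.0833 and 0.169 and a difference of 1.83 to 2.54. With the 3 libraries of few genes left out the difference was 2.51 with a p of 0.0271.

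DUSP2, a nuclear phosphatase first known from activated immune cells, went the other way. It measured 33.6, 4.87, 0, 5.05, 53.2 and 39.2 FPKM in injury libraries and 31.3, 95.7, 23.9, 60.8 and 93.7 FPKM in distal libraries. It was listed at 0 in injury 3 and was near 5 FPKM in injury 2 and 4, while the remaining injury libraries lay within the distal range. The difference was -2.19 ± 0.97 (SE; limma p 0.0324, exact permutation p 0.0693). The p was above 0.05 without injury 2, 3 or 4 and without distal 1, 2, 4 or 5, at most 0.0999 with a difference of -1.48 to -2.38, and with the 3 libraries of few genes left out the difference was -0.84 with a p of 0.286.

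DUSP23 is a small atypical phosphatase, and its ID ENSDARG00000089245 was the second member with separate segments. It measured 17.2, 0.257, 0, 2.54, 2.14 and 15.9 FPKM in injury 1 to 6, against 24.3, 32.7, 19.1, 32.2 and 28.5 FPKM in distal 1 to 5. The distal libraries were even, and every injury library lay at or below 17.2 FPKM, with injury 2 and 3 at 0.257 and 0 FPKM. The difference was -2.79 ± 0.94 (SE; limma p 0.00631, exact permutation p 0.013; 95% interval -4.72 to -0.86), and with injury 2, injury 3 and distal 2 left out it was -1.80 with a p of 0.027. At most 434 fragments stood behind a value. The other DUSP23 ID was above 0 in injury 5 and 6 alone, at 2.07 and 0.789 FPKM.

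DUSP4, a nuclear phosphatase for ERK and JNK and the highest of the family, measured 62.3, 24.2, 175, 72.04, 76.6 and 55.2 FPKM at the injury, against 36.3, 153, 27.4, 73.2 and 140.3 FPKM in the distal segments, with the same 3 high libraries as JUN. Its difference was -0.07 ± 0.72 (SE; limma p 0.922, exact permutation p 0.881; 95% interval -1.55 to 1.40). DUSP6, the cytoplasmic ERK phosphatase, ranged over 0 to 58.4 FPKM in injury libraries and 20.04 to 62.5 FPKM in distal libraries. The RNA phosphatase gene dusp11 was the 1 member above 0 in at least 3 libraries of one segment and listed at 0 in all of the other. It was at 2.42, 0.127 and 0.981 FPKM in injury 1, 5 and 6, which are also the 3 libraries with the most genes detected, and the difference was 0.49 ± 0.35 (SE; limma p 0.177, exact permutation p 0.303).

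The socs genes, feedback inhibitors of cytokine signalling, had 7 of 10 tested members above 0 in difference, yet their 2 calls were lower at the injury. SOCS3, which holds back axon regeneration in mouse retinal neurons, had ID ENSDARG00000025428 at 298, 403, 59.6, 293, 302 and 219 FPKM in injury libraries and 109.9, 243, 73.4, 175 and 375 FPKM in distal libraries. It was low in injury 3, at 59.6 FPKM, and 219 FPKM or more in the other injury libraries. Injury 3 lay below the distal range and injury 2 above it, and the remaining injury libraries lay within it. The difference was 0.45 ± 0.59 (SE; limma p 0.459, exact permutation p 0.446; 95% interval -0.77 to 1.67), and 0.83 with a p of 0.092 without injury 3. The second SOCS3 ID, ENSDARG00000026611, measured 39.7, 19.7, 102, 29.2, 43.5 and 66.6 FPKM in injury 1 to 6, against 28.4, 115, 3.84, 36.99 and 67.3 FPKM in distal 1 to 5. SOCS1, induced by interferons, measured 189, 97.7, 313, 78.1, 57.03 and 97.4 FPKM at the injury, against 177, 32.9, 39.2, 189.7 and 89.8 FPKM in the distal segments, with injury 3 the highest.

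Both called members stood at low levels. SOCS6 (ENSDARG00000015863), a relative that acts on receptor kinases, measured 6.75, 0, 0, 0.193, 6.998 and 5.66 FPKM in injury libraries and 15.99, 25.2, 8.64, 5.73 and 9.13 FPKM in distal libraries. It was listed at 0 in injury 2 and 3 and was at 0.193 FPKM in injury 4, and only injury 1 and 5 exceeded the lowest distal library, distal 4. The difference was -2.14 ± 0.94 (SE; limma p 0.0312, exact permutation p 0.0303). It was -1.84 with a p of 0.0518 without injury 2 and -1.87 with a p of 0.057 without distal 2. The gene socs5a measured 0.273, 0, 0, 0, 2.04 and 3.21 FPKM in injury 1 to 6, against 6.202, 16.9, 1.04, 6.77 and 3.64 FPKM in distal 1 to 5. Injury 2, 3 and 4 listed it at 0, and only injury 5 and 6 exceeded the lowest distal library. The difference was -1.97 ± 0.90 (SE; limma p 0.0365, exact permutation p 0.0152) and -1.59 with a p of 0.0563 without distal 2. With injury 2, injury 3 and distal 2 left out, the difference was -1.13 for SOCS6 with a p of 0.161 and -1.26 for socs5a with a p of 0.145.

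How many members a library held followed how many genes it held. Members above 0 numbered 48 to 84 in injury libraries and 58 to 79 in distal libraries. Across the 11 libraries this number rose with the number of genes at 1 FPKM or more, with r = 0.993 and Spearman's rho = 0.982 (permutation p 1e-05 for both, the smallest that 100000 permutations can give, adjusted 3e-05 over 3 relations). Without injury 2 and 3, r was 0.989, and r was 0.998 within the 6 injury libraries. The members are themselves among the genes counted and no other set of genes was compared, so this relation shows nothing particular to them. The summed FPKM of the fos and jun families was 7768 to 14593 in injury libraries and 9078 to 18375 in distal libraries, and against genes detected it had r = 0.175 and rho = 0.0727 (permutation p 0.598 and 0.837, adjusted 0.598 and 0.837). Without injury 2 and 3, r was 0.0996. Within the 6 injury libraries, r was 0.136 and rho 0.143 (exact permutation p 0.769 and 0.803, adjusted 0.769 and 0.803). This r depended on injury 2 and 3. Without them it was 0.828, over fewer libraries than the minimum of 6 set for a correlation here.

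The egr sum followed the fos and jun sum. It was 404 to 1349 FPKM in injury libraries and 728 to 2494 FPKM in distal libraries, and across the 11 libraries r was 0.755 and rho 0.836 (permutation p 0.0041 and 0.0022, adjusted 0.0061 and 0.0033). Without injury 2 and 4, whose fos and jun sums lay farthest from the median, r was 0.675. Without distal 2 and 5, whose egr sums did, r was 0.734. Within the 6 injury libraries r was 0.969 and rho 0.943 (exact permutation p 0.0028 and 0.0167, adjusted 0.0042 and 0.025). No correlation was computed over the 5 distal libraries, fewer than the minimum of 6 set for one. The fos sum alone did not run with the egr sum in every library. Injury 3 had the lowest fos sum of all libraries, 3804 FPKM, with a jun sum of 10789 FPKM and an egr sum of 1349 FPKM. Distal 3 had the highest fos sum, 7046 FPKM, and the lowest egr sum of the distal libraries, 728 FPKM. Relations of egr with fos or jun alone were not tested. No other set of genes was compared with the egr sum, so this relation shows nothing particular to these families.

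**Figure D4:**
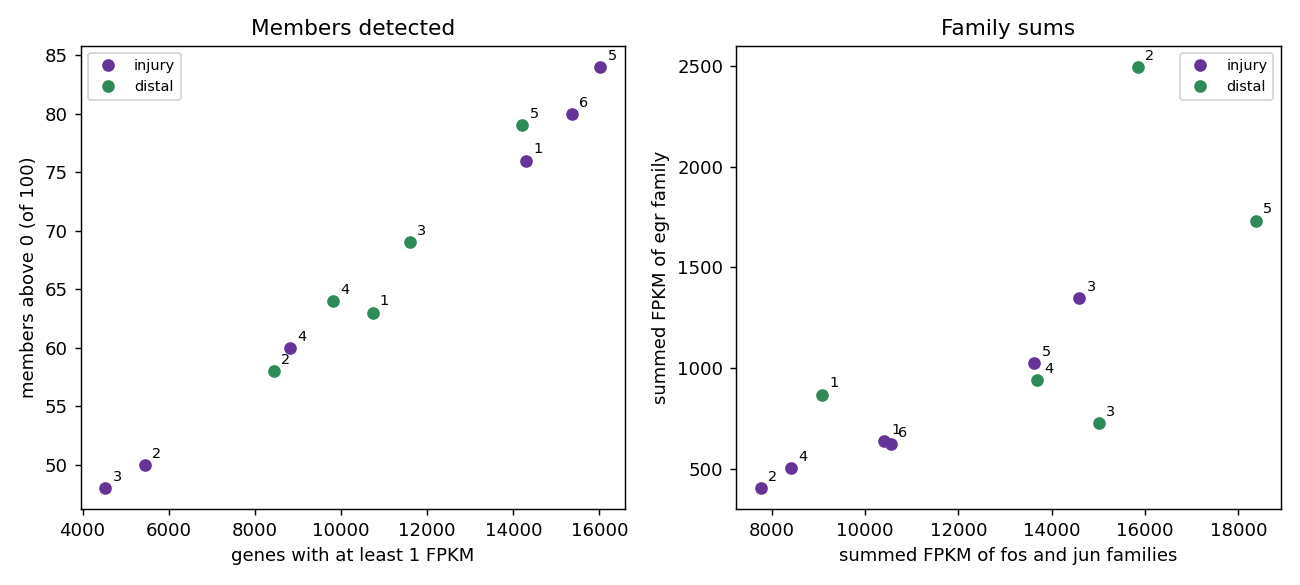
Left, members above 0 (of 100) against genes with at least 1 FPKM in each library. Right, summed FPKM of the egr family against that of the fos and jun families. Points are libraries numbered as in the text, injury in purple and distal in green. Injury 2 and injury 3 hold the fewest members and genes, whereas in the right panel injury 3 is the highest injury library on both axes and injury 2 the lowest.

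The same 3 libraries were the highest for several members of different families. Of the 35 members with a mean of at least 50 FPKM, 7 had their 3 highest values in injury 3, distal 2 and distal 5: JUN, JUNB (ENSDARG00000104773), egr4, KLF6, GADD45B (ENSDARG00000027744), DUSP4 and SOCS3 (ENSDARG00000026611). The next most frequent sets of 3 libraries were shared by 3 members each. TPH2 was also highest in those libraries, at 5396 FPKM in injury 3, against 6042 FPKM in distal 2 and 4957 FPKM in distal 5. This grouping was noticed in the values and was not tested.

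Genes that act before the immediate early genes were also measured. Of 29 IDs for SRF, its ternary complex partners, CREB and MAP kinases, all were tested, 0 were lower and 1 was higher at an unadjusted limma p under 0.05, with 15 below 0 and a median difference of -0.06. That 1 was RPS6KA1, a kinase between ERK and its nuclear targets, at 4.23, 0, 0, 5.75, 3.33 and 6.83 FPKM at the injury, against 0, 0, 0.07801, 0 and 0.113 FPKM in the distal segments. It was above 3 FPKM in 4 injury libraries, was listed at 0 in injury 2 and 3 and did not exceed 0.113 FPKM in the distal segments, with a difference of 1.65 ± 0.76 (SE; limma p 0.0389). It was 2.49 with a p of 0.0019 with injury 2, injury 3 and distal 2 left out, and its p was between 0.0525 and 0.0558 without any 1 of distal 1 to 4, at a difference of 1.64 to 1.67.

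Of 19 JAK-STAT genes that act before socs, 17 were tested and 0 were called in either direction, with a median of -0.10. STAT3, the transcription factor whose targets include SOCS3, measured 106, 124, 56.3, 66.02, 93.8 and 70.9 FPKM in injury libraries and 109, 184, 387, 255 and 123 FPKM in distal libraries. The injury libraries reached 124 FPKM and the distal libraries began at 109 FPKM, so that only injury 2 overlapped, and the difference was -1.18 ± 0.59 (SE; limma p 0.0564). It was chosen after its values were seen. Of 20 integrated stress response genes 19 were tested and 0 called, with a median of -0.16. Of 26 regeneration-associated IDs, 8 of them members described above, 22 were tested and 0 called, with a median of 0.14. For these lists the share called among all genes was 2.68%.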

How the data were processed

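Bulk RNA sequencing of sorted ISNs, 6 injury and 5 distal libraries, was used as deposited: a table of FPKM that the authors calculated from gene length and the fragments mapped to each gene. The submitters' processing notes name HISAT2 2.0.5, HTSeq 0.9.1 and danRer11. The study's methods called genes with a count model and an unadjusted p, for which FPKM cannot serve. Instead limma 3.58.1 (R 4.3.3; eBayes, trended prior) compared the segments on log2(FPKM + 1) for every gene whose mean reached 0.1 FPKM, and two-sided p-values were adjusted by Benjamini-Hochberg. Single genes were also compared by a two-sided exact permutation test over the 462 ways to divide the libraries, and relations by 100000 permutations. Library totals and fragments per gene were recovered from the FPKM values for use with voom. On simulated data this returned all 11 totals and the exact fragments of 99.3% of genes above 0 in 3 or more libraries. The limma fit was checked on simulated data: of 200 genes changed by 1, 2, 3 or 4 on the log2 scale, 50, 126, 167 and 189 had an unadjusted and 0, 7, 70 and 129 an adjusted p under 0.05.

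Symbols came from a reference table joined on the Ensembl ID, and ier2a was added by its ID. Where a symbol has several IDs the ID is given, because reads of near-identical paralogs may be split between them in ways not given in the sources used here. Statistics are given for members with an unadjusted p under 0.05, the highest member of each family, and members above 0 in at least 3 libraries of one segment and none of the other. Values in every library are also given for members with a mean of at least 50 FPKM. Other members named, and the differences given for JUND, june, ier2b, BTG1, GADD45B (ENSDARG00000013576), KLF7, ATF3, dusp22a and NR4A2, were chosen after their values were seen. The members and all gene lists were chosen with earlier results of these data known. Alternatives were pseudocounts, filters, scalings, the limma prior, a covariate for genes detected, voom, a replicate block and leaving out libraries. Promoter sequences were not analysed here.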

Additional observations from a re-analysis of the deposited data

Results flagged for a closer look

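In 5 of the 45 groups of libraries checked, 1 library lay far from the others of its segment for a member. The test was Dixon's at 95%, run on the log2(FPKM + 1) scale and not on the FPKM printed below. Chance alone gives about 1 in 20 groups. In injury 3, fosl2l was listed at 0 with the other injury libraries at 47.1 FPKM or more, KLF6 stood at 438 FPKM with the others at 71.9 FPKM or less, and SOCS3 (ENSDARG00000025428) stood at 59.6 FPKM with the others at 219 FPKM or more. In injury 2, BTG2 stood at 130 FPKM with the others at 297 FPKM or more. In distal 3, atf4b stood at 146 FPKM with the others at 712 FPKM or more. Injury 2 and injury 3, which hold 4 of these 5 values, are also the libraries with the fewest genes detected, and the part of that in these values was not tested.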

How the results depend on the processing

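None of the 9 called members changed sign in any of 23 alternatives, and 0 members had an adjusted p under 0.05 in any of them, the lowest being 0.714. Over all genes, 649 had an unadjusted p under 0.05, against 1130 with genes detected as a covariate, 1135 with voom and 1023 with injury 2, injury 3 and distal 2 left out together. The number with an adjusted p under 0.05 was 2 with a prior without trend, 5 with voom and 0 to 1 without any 1 library (1 without injury 1). Higher genes made up 24.5% of the called genes, 38.6% with the covariate, 42.8% with voom, 72.3% without those 3 libraries, and 53.7% and 54.3% without injury 2 or injury 3 alone. Members called numbered 3 to 8 when 1 library was left out, 3 to 7 of them lower and 0 to 2 higher. That was 3.53% to 9.41% of members, beside 2.25% to 3.11% of all genes. Lower members numbered 5 under quantile normalization and 5 without the 3 libraries, beside 2.54% and 1.17% of all genes. Higher members numbered 2 without the 3 libraries, where 4.23% of all genes were called and 72.3% of those were higher. They numbered 0 with a pseudocount of 0.1 or 0.01, without a filter and with a prior without trend. Members whose segments did not overlap numbered 1, DUSP23 (ENSDARG00000089245), after rescaling to a sum of 1000000 or quantile normalization. The causes were not tested.

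Whether libraries with the same replicate number came from the same fish is not given in the sources used here. Their correlations, on deviations from the segment means, were -0.047 to 0.134, which cannot show that they did not. The best distal match had the same number for injury 1 and injury 5, and another number for injury 2, 3 and 4. With a replicate block 6 members were called (7.06%, beside 2.52% of all genes), all lower (beside 2.07% of all genes), and 0 higher. Of the uncalled members followed across the alternatives, atf4b, CEBPD, KLF6, GADD45B (ENSDARG00000027744) and DUSP4 took the other sign in 1 to 5 alternatives. A p above the threshold with 6 and 5 libraries does not show that a member did not differ.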
